A study of Mus musculus with 2 samples.

Results

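The genes that write, maintain and erase DNA methylation were followed in sorted mouse foetal germ cells. The members are Dnmt1, Uhrf1, Dnmt3a, Dnmt3b, Dnmt3c, Dnmt3l, Tet1, Tet2 and Tet3, 9 of the 42422 genes in the count table, picked by name through their Ensembl identifiers. Of these, 8 passed the filter on low counts with 15252 genes in all; Dnmt3c, with 65 counts over 21 of the 40 libraries, did not.

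RNA was measured in germ cells of E12.5 gonads (embryonic day 12.5), from embryos of ASMU Swiss females mated with Oct4(Pou5fl)-eGFP males on a 129svJT2 background, whose genotype the labels give as WT. The 10 groups held 4 libraries each. XX and XY cells were taken before culture (0 h) and after 24 h and 72 h of gonad-mesonephros culture with the vehicle DMSO. XY cells were also taken after 24 h and 72 h with 500 nM BGJ398, an inhibitor of fibroblast growth factor receptors (FGFRi), or 500 nM PD0325901, an inhibitor of the kinase MEK (MEKi). Every group carried the Oct4-eGFP reporter, each library pooled 6 to 15 gonads, and GFP-positive, propidium iodide-negative cells were sorted after the mesonephros was cut away. The inhibitors reached the somatic cells of the cultured gonad as well as the germ cells. There was no inhibitor group of XX cells.

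DNA methylation is laid down on cytosines, mostly in CpG pairs. Dnmt1 copies it to the new strand at replication, guided by Uhrf1, which binds hemimethylated DNA. Dnmt3a, Dnmt3b and the rodent gene Dnmt3c add it to unmethylated DNA, with the catalytically inactive Dnmt3l as their cofactor, and the Tet enzymes oxidise methylated cytosine towards its removal. Germ cells of the mid-gestation foetus lose nearly all of their methylation. Male germ cells then regain it before birth, whereas female germ cells do so only in growing oocytes after birth.

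The promoters of the 3 members with the clearest rises over culture are shown, to set how unlike they are in CpG content beside the counts that follow. Each is the 250 bases before the canonical start in GENCODE M39 on GRCm39, 5′ to 3′ on the gene's strand, with each CpG in capitals. Windows of other members that overlap exons of further transcripts are not shown. The Dnmt3a window lies at chr12:3856713-3856962 on the plus strand, that of Dnmt3l at chr10:77885426-77885675 on the plus strand and that of Tet3 at chr6:83433375-83433624 on the minus strand.
Dnmt3a: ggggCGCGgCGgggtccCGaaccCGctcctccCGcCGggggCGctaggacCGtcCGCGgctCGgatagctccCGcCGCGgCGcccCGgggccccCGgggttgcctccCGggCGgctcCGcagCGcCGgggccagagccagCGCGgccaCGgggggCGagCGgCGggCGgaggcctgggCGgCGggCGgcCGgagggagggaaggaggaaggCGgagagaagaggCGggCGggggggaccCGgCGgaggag
Dnmt3l: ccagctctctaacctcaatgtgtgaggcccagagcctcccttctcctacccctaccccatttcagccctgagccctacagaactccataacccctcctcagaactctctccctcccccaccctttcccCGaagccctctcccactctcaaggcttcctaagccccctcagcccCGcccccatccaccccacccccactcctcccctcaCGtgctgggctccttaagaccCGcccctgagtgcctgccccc
Tet3: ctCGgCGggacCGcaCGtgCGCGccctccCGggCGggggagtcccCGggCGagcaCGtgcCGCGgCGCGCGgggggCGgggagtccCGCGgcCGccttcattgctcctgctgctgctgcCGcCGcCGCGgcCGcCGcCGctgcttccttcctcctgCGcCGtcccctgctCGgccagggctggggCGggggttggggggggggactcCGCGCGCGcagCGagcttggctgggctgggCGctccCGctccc
The Dnmt3a window held 39 CpG pairs and that of Tet3 held 38, against 4 for Dnmt3l, while the median over 21770 promoters of the same length was 8 (quartiles 3 and 16). On either strand, GGGCGG, the core of the SP and KLF factor motif, stood in all 3 windows and in 36.32% of all promoters. The E-box CACGTG was found in the Dnmt3l and Tet3 windows, in the 6.26% of promoters that hold it, and not in the Dnmt3a window. The E2F letters TTTCCCGC and TTTGGCGC and the ETS letters CCGGAAGT were in none of the 3, with 1.14%, 0.49% and 2.64% of promoters holding them. These are matches of letters, not measured sites.

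The genes lie apart except for one pair. Dnmt3b (chr2:153490861-153529650) and Dnmt3c (chr2:153538572-153571827) are neighbours on the plus strand of GRCm39 and share sequence, with 23.64% of the 50-base words of the Dnmt3c transcript also in Dnmt3b. In the last 500 bases, where poly(A)-primed reads are expected to gather, 52.77% of the Dnmt3c words were in Dnmt3b and 0% of the Dnmt3b words in Dnmt3c. Counts of Dnmt3c are therefore the more uncertain of the pair. Dnmt1 spans chr9:20817945-20871184, Uhrf1 chr17:56610275-56630489, Dnmt3a chr12:3856007-3964443, Dnmt3l chr10:77877781-77899456, Tet1 chr10:62640349-62744775, Tet2 chr3:133169436-133250900 and Tet3 chr6:83339355-83436066. Genes on the opposite strand overlap Dnmt3a, Dnmt3b, Dnmt3c, Dnmt3l, Tet2 and Tet3, and the counting took strand into account. Small or predicted genes on the same strand overlap Dnmt1, Dnmt3b, Tet1 and Tet3, and strand does not separate those reads.

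Library totals ran from 1178953 to 5199153 counts, with a median of 2135128.5. Values are CPM, counts scaled to one library size with TMM factors, given as mean ± SD of 4 libraries unless said otherwise. A gene was called where limma's test against a 1.5-fold change gave a Benjamini-Hochberg adjusted p (FDR) under 0.05. The libraries were sequenced in 2 pools. Both 0 h groups, both 24 h DMSO groups and the 24 h MEKi group were in the first, and all 72 h groups and the 24 h FGFRi group were in the second, so 72 h against earlier times and 24 h FGFRi against DMSO cannot be told apart from the pool. The summed CPM of 5 germ cell markers had group means of 1910 to 4970, against 11 to 52.6 for supporting cell, 16.2 to 61.4 for interstitial, 7.03 to 113 for endothelial and 22.4 to 289 for blood cell markers. The endothelial sum was 98.9 to 128 in the 0 h libraries and 5.16 to 28.3 in those at 72 h, over the same time step as Dnmt1 and Tet1 below. It was mostly Pecam1 (group means 6.34 to 112), while Cdh5, Kdr and Tek had group means of at most 9.72, 1.71 and 3.17. Its part in those results was not tested. In sorted bulk RNA, fewer cells with a transcript and less transcript per cell cannot be told apart.

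**Figure D1:**
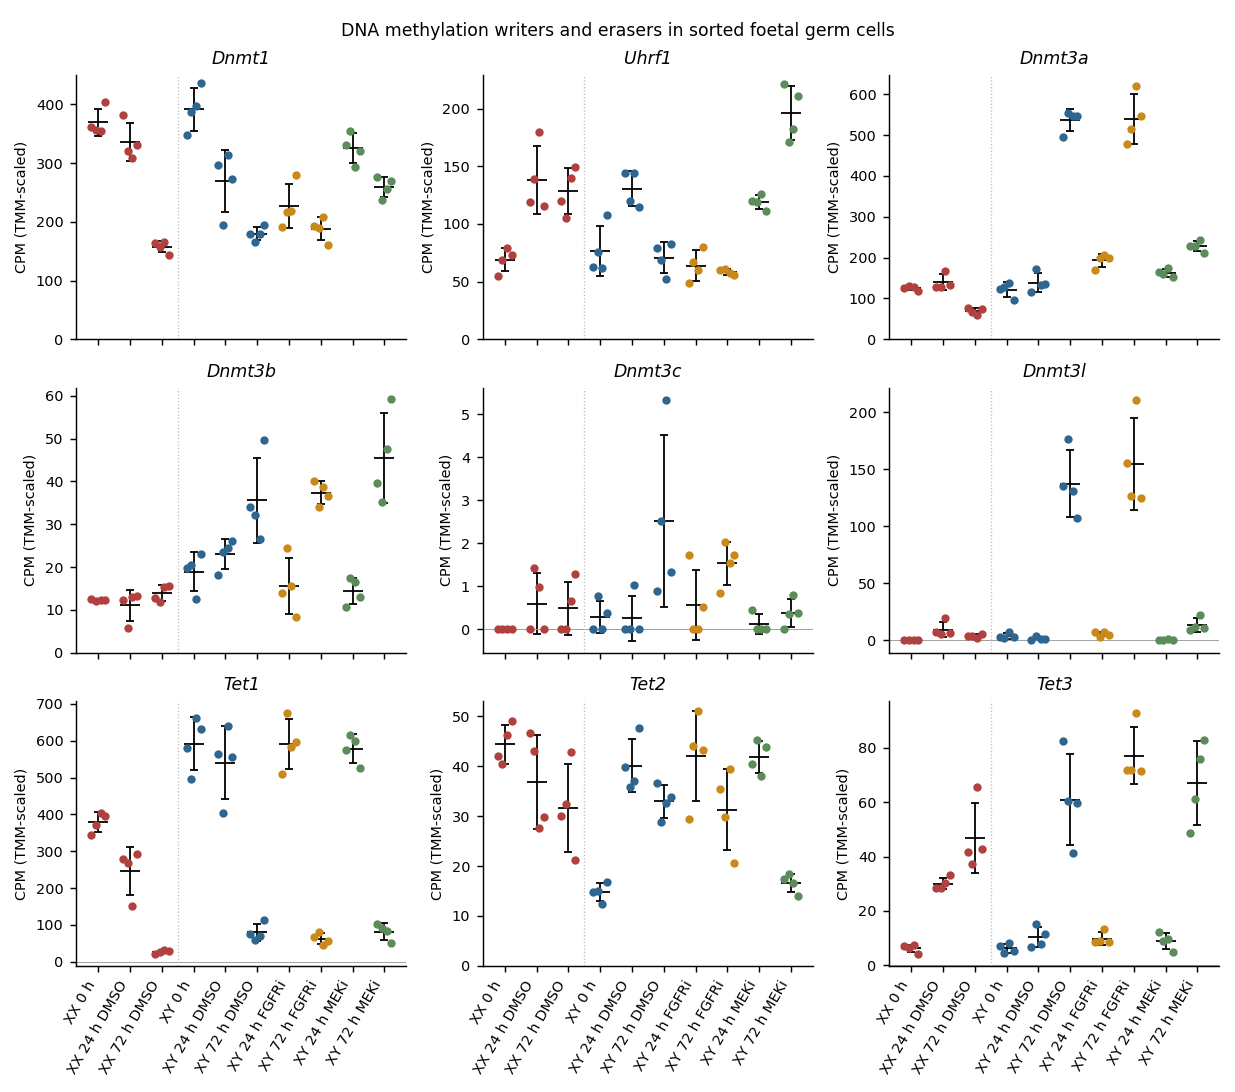
CPM of the 9 genes in each library (points) with the group mean and SD (bars), XX groups left of the dotted line and XY groups right of it, each panel on its own linear axis. Dnmt3a and Dnmt3l are highest in the XY 72 h DMSO and FGFRi libraries, Tet1 is lower in every 72 h library than in every earlier one, and Tet3 is highest at 72 h.

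Dnmt1, the maintenance methyltransferase, fell in both sexes over culture. In XX cells its 4 libraries read 362, 357, 354 and 404 CPM at 0 h and 164, 157, 165 and 144 at 72 h with DMSO. In XY cells they read 347, 387, 397 and 436 at 0 h and 180, 166, 180 and 194 at 72 h. The 0 h and 72 h libraries did not overlap in either sex. The log2 fold change was -1.25 (SE 0.105, FDR 2.248e-07, limma) in XX and -1.13 (SE 0.1, FDR 6.205e-06) in XY cells. The XX fall lay between 24 h (335 ± 32.4) and 72 h (157 ± 9.71), with a log2 fold change of -1.11 (FDR 0.0001172). In XY cells 24 h DMSO stood in between at 269 ± 52.7, and neither step alone was called, at -0.53 to 24 h and -0.59 from there (FDR 1 and 0.882). The sexes differed little at 72 h (log2 fold change of XY over XX 0.21, 95% interval -0.02 to 0.43).

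Uhrf1, which brings Dnmt1 to replicated DNA, passed limma's test in no DMSO comparison over time or between the sexes. It stood at 69 ± 10.1 CPM in XX and 77 ± 21.7 in XY cells at 0 h, and at 139 ± 29.5 and 131 ± 15.5 after 24 h with DMSO. The log2 fold changes to 24 h of 0.88 in XX and 0.72 in XY cells were not called (FDR 0.2662 and 1), though edgeR called the first (FDR 0.0188). At 72 h the XX libraries read 120, 105, 140 and 149 CPM and the XY DMSO libraries 78.8, 68.5, 52.6 and 82.9. These groups did not overlap, but the log2 fold change of -0.85 (95% interval -1.15 to -0.55) was not called (FDR 0.08961). It was called by edgeR's test on the same threshold (FDR 0.0278) and without XX 72 h DMSO replicate 4 (-0.97, FDR 0.0245). The XX change from 0 h to 72 h, 0.83 (FDR 0.1119), was called by edgeR (FDR 0.0204) and DESeq2 (0.0403), with DESeq2-type factors (0.0291), with index-partner counts taken out by either ratio (0.0469 and 0.0396, explained with Dnmt3l) and without XX 72 h replicate 4 (0.0318). In XY cells the change from 24 h to 72 h, -0.86 (FDR 0.1028), was called by edgeR (0.0256) and without XY 24 h DMSO replicate 5 (0.0403). With index-partner counts taken out it was -0.78 (FDR 0.258) at the Y-linked ratio and -0.39 (FDR 1) per pair, and the XY change from 0 h to 24 h was 0.67 and 0.32. Limma's plain test, with an observed change over 1.5-fold, called all 5 of the Uhrf1 changes named here on the counts as deposited.

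Dnmt3a, a de novo methyltransferase, rose in XY cells alone among the DMSO cultures. Its XY libraries read 123, 129, 139 and 96 CPM at 0 h and 496, 554, 546 and 547 at 72 h with DMSO, while the XX libraries went from 126, 131, 128 and 118 to 77.6, 67.6, 60.2 and 73.1. Every XY 72 h DMSO library was above every XX and every earlier library. The XY rise was 2.15 in log2 (SE 0.0979, FDR 9.484e-20, limma) from 0 h and 1.98 (SE 0.0988, FDR 3.238e-17) from 24 h, where XY DMSO cells held 139 ± 23.1. In XX cells the change from 0 h to 72 h was -0.82 and was not called (FDR 0.07746), though it was by edgeR (0.0115) and without XX 0 h replicate 5 (0.0491). From 24 h to 72 h the XX log2 fold change of -0.93 was called (FDR 0.02548), but not under DESeq2 (FDR 0.0747), with DESeq2-type factors (0.134), with no filter (0.0876) or with only those groups fitted (0.0583), nor without XX 24 h replicate 6 (0.0517) or XX 72 h replicates 4, 7 or 8 (0.0927, 0.0553 and 0.0727). With the counts of a library of the same sample index taken out, as described for Dnmt3l, that change was -0.58 (FDR 0.931) at the Y-linked ratio and -0.13 (FDR 1) at a ratio set per pair, with 1033 and 753 of 1357 XX 24 h counts left. The same removals put the XY rise from 0 h at 2.38 and 3.11 and that from 24 h at 2.09 and 2.66, all called. XY less XX was -0.07 at 0 h (95% interval -0.28 to 0.14) and -0.01 at 24 h (-0.23 to 0.22), neither called. The 0 h value became -0.31 at the Y-linked ratio and -1.07 (FDR 0.258) per pair, where XY 0 h cells went from 122 to 67.9 CPM and XX 0 h cells from 126 to 129. The sexes differed at 72 h by 2.91 (SE 0.116, FDR 1.267e-23). The difference between the 72 h and the 0 h sex contrasts was 2.97 (SE 0.157, FDR 3.942e-18), and that between 72 h and 24 h was 2.91 (SE 0.162, FDR 6.476e-17). Per pair the first was 3.94 and the second 2.79, both called.

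Dnmt3b, the second de novo enzyme, had few counts in every group. Its XX means were 12.3 ± 0.262, 11 ± 3.59 and 13.9 ± 1.83 CPM at 0 h, 24 h and 72 h, and its XY DMSO means were 19 ± 4.56, 23.1 ± 3.48 and 35.6 ± 9.92. The XY 72 h DMSO libraries (34, 32.2, 26.6 and 49.8) were all above the XX 72 h libraries (12.8, 11.9, 15.4 and 15.5), a log2 fold change of 1.31 (SE 0.256, FDR 0.009364, limma). With replicate number fitted as a block it was 1.5 and not called (FDR 0.111). At 24 h the XY DMSO libraries (18.1, 23.4, 24.4 and 26.2) were also all above the XX libraries (12.4, 5.67, 12.9 and 13.2). That difference of 1.17 was not called (FDR 0.1377), though edgeR called it (FDR 0.0378). The XY changes to 72 h were not called, at 0.79 from 0 h (FDR 0.3379) and 0.54 from 24 h (FDR 1). With index-partner counts taken out per pair, as described for Dnmt3l, XY 24 h DMSO kept 105 of 248 counts and the second was 1.41 and called (FDR 0.0355), but at the Y-linked ratio it was 0.65 (FDR 0.74).

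Dnmt3c, which methylates young retrotransposons in the male germ line, was near the limit of detection. It had 18 counts over the XY 72 h DMSO libraries and 21 over the XY 72 h FGFRi libraries, and 0 to 7 over the libraries of each other group. The XY 72 h DMSO libraries held 0.895, 2.51, 5.33 and 1.33 CPM. The filter on low counts left it out of the test. With no filter it was called higher at 72 h in XY DMSO cells than at 24 h (18 against 3 counts, FDR 0.00613, limma) and 0 h (18 against 4, FDR 0.0452), and was not between the sexes at 72 h (18 against 3, FDR 0.161).

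Dnmt3l, the cofactor without catalytic activity, had its highest levels in XY cells at 72 h. The XY 72 h DMSO libraries read 135, 177, 131 and 107 CPM, against 3.07, 1.82, 7.13 and 3.14 at 0 h and 0, 3.65, 1.03 and 1.35 at 24 h with DMSO. The XX 72 h libraries read 3.75, 4.13, 2.01 and 5.18. The lowest XY 72 h DMSO library was far above every library of those groups. In log2 the XY rise was 5.52 from 0 h (SE 0.419, FDR 8.651e-15, limma) and 6.98 from 24 h (SE 0.648, FDR 6.301e-12), and the sex difference at 72 h was 5.04 (SE 0.466, FDR 4.853e-12).

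At 0 h and 24 h the Dnmt3l values were small. Libraries of the first pool carried the same sample index as libraries of the second in 16 pairs, and the 4 XX 24 h DMSO libraries shared theirs with the 4 XY 72 h FGFRi libraries. Their Dnmt3l counts were 4.22%, 3.78%, 4.23% and 2.98% of those of the partner library, 88 of 2262 counts in all or 3.89%. The summed counts of 4 Y-linked genes, which XX cells lack, were 5.42%, 3.81%, 4.46% and 3.28% of the partner's, or 4.2% over the group. The other tested members stood between 11% and 745% of the partner. The XX 0 h and XX 72 h libraries, whose index partners were XX too, held 21 and 29 Y-linked counts, against 88 in XX 24 h. The 4.2% was not lowered for counts of that kind. The XY 0 h libraries held 1.65% to 4.94% of the Dnmt3l counts of their XY 72 h DMSO partners. Where the partners held few Dnmt3l counts the percentages spread wider, at 0% to 25.9% for XY 24 h DMSO (partners with 18 to 113 counts) and 0% to 12.5% for XX 0 h (3 to 8 counts). XX cells held 1 count of Dnmt3l over 4 libraries at 0 h, so the calls there are given as count ratios with exact 95% intervals for counting error only. The ratio was 91 (15.9 to 3630) for XX 24 h over XX 0 h and 31.2 (5.18 to 1270) for XY 0 h over XX 0 h, and 38.7 (6.36 to 1590) for XX 72 h over XX 0 h, which crosses the pools. The XX 72 h libraries held 26 Dnmt3l counts beside their 29 Y-linked counts, and the source of either was not tested. XX exceeded XY cells at 24 h with a log2 fold change of XY over XX of -2.76 (FDR 0.02267). With 4.2% of the partner's counts taken out of the 16 first-pool libraries that had a partner, the XX 24 h libraries kept 0 of 88 Dnmt3l counts and the XY 0 h libraries 1 of 30. The XY over XX log2 fold changes then were 0.16 at 0 h and 0.47 at 24 h, neither called. On the counts as deposited, the 0 h call was also lost without XX 0 h replicates 4 or 5 or XY 0 h replicate 5 (FDR 0.112, 0.172 and 0.0652), and the 24 h call without XX 24 h replicate 6 or XY 24 h DMSO replicate 2 (0.0506 and 0.0774). Nothing was taken out of the 4 XY 24 h MEKi libraries, which had no partner, or out of the second pool. The 24 h less 0 h difference of the sex contrasts went from -6.32 to 0.31, and the 72 h less 24 h difference from 7.79 to 4.52 (FDR 0.0116). The removal left all 72 h counts and the 1 Dnmt3l count of XX 0 h as they were. It could therefore not test the Dnmt3l calls between the sexes at 72 h and for XX 72 h over 0 h. The Dnmt3l calls of XY 72 h DMSO cells over 0 h and 24 h were kept after it. Those XY rises moved to 8.88 from 0 h and 8.83 from 24 h, and to 9.22 and 9.06 at a ratio set per pair. With 0 to 6 early counts left over each group, those sizes are not bounds. The ratio set per pair was the 0.01 quantile of first-pool over partner counts, over genes with at least 500 partner counts. It was 15.2% to 25.7% for XY 24 h DMSO, where the lowest such gene of each pair stood at 4.17% to 8.64%. It thus took out more than the whole count of some genes.

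**Figure D2:**
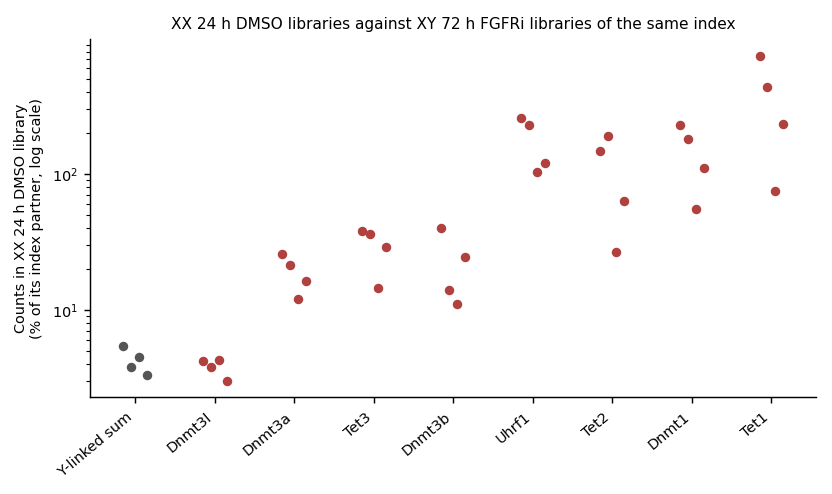
Counts of each gene in the 4 XX 24 h DMSO libraries as a percentage of the XY 72 h FGFRi library with the same sample index (points, log axis), beside the sum of 4 Y-linked genes. Dnmt3l lies at 2.98% to 4.23%, next to the Y-linked sum at 3.28% to 5.42%, and the other tested members lie at 11% or above. Dnmt3c is not plotted.

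Tet1, the Tet enzyme that primordial germ cells are known for, was high at the start and fell in both sexes. The XX libraries read 344, 371, 405 and 395 CPM at 0 h, 280, 267, 151 and 292 at 24 h, and 21.4, 27.4, 31.4 and 30.4 at 72 h with DMSO. The XY libraries read 581, 496, 662 and 631 at 0 h, 564, 403, 640 and 556 at 24 h, and 76.5, 60.2, 70.6 and 113 at 72 h. Each sex was lower in all of its 72 h libraries than in any earlier one, and XX libraries were below XY libraries at every time. From 0 h to 72 h the log2 fold change was -3.83 in XX (SE 0.234, FDR 9.924e-18, limma) and -2.91 in XY cells (SE 0.158, FDR 2.077e-18). From 24 h to 72 h it was -3.23 (FDR 2.545e-13) and -2.83 (FDR 4.972e-17). XY cells exceeded XX cells by 0.59 at 0 h, which was not called (FDR 1), by 1.1 at 24 h (SE 0.144, FDR 0.005803) and by 1.51 at 72 h (SE 0.253, FDR 0.001135). With no filter on low counts the 72 h difference was 1.49 with an FDR of 0.108. Tet1 counts in the 72 h XX libraries were 2.82% to 9.55% of those in the 0 h library of the same index. In the XY 72 h DMSO libraries they were 6.58% to 23%. Among genes with at least 500 counts at 0 h, the lowest of each pair stood at 0.322% to 1.68% in XX and 0.209% to 7.02% in XY pairs.

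Tet2 differed between the sexes before culture. The XX libraries read 42, 40.5, 46.2 and 49 CPM and the XY libraries 14.9, 15, 12.5 and 16.9, a log2 fold change of -1.57 (SE 0.192, FDR 0.0002224, limma). After 24 h with DMSO the XY libraries read 39.9, 35.9, 37.1 and 47.6 and the XX libraries 46.7, 43, 27.7 and 29.9. The groups then overlapped. The XY rise to 24 h was 1.46 (SE 0.199, FDR 0.001895), within one pool. The difference of the sex contrasts was 1.76 between 24 h and 0 h (SE 0.254, FDR 0.007181, 0.0518 without XY 24 h DMSO replicate 5 and 0.0565 with no filter) and 1.74 between 72 h and 0 h (SE 0.273, FDR 0.0004026). At 72 h the means were 31.7 ± 8.84 in XX and 33 ± 3.26 in XY DMSO cells. The XY change from 0 h to 72 h, 1.12 (FDR 0.02086), was not called without XY 0 h replicate 3 (FDR 0.0731), without XY 72 h DMSO replicate 2 (0.0729) or with no filter on low counts (0.156).

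Tet3, best known from the zygote, rose in both sexes and was higher in XX than in XY cells at 24 h. It stood at 6.18 ± 1.42 CPM in XX and 6.2 ± 1.59 in XY cells at 0 h. The XX libraries held 28.6, 28.4, 30.2 and 33.1 at 24 h, all above the XY DMSO libraries at 6.74, 15.1, 7.91 and 11.6. At 72 h the XX libraries read 41.8, 37.2, 65.6 and 42.7 and the XY libraries 82.4, 60.6, 41.3 and 59.7, which overlap. XX cells rose by 2.37 in log2 to 24 h (SE 0.302, FDR 3.147e-05, limma) and stood 2.9 above 0 h at 72 h (SE 0.297, FDR 1.536e-09). XY cells were 3.43 higher at 72 h than at 0 h (SE 0.3, FDR 8.904e-12) and 2.59 higher than at 24 h (SE 0.254, FDR 2.882e-09). XY less XX was -1.58 at 24 h (SE 0.272, FDR 0.004915) and 0.49 at 72 h, which was not called (FDR 0.9688), and the difference between these contrasts was 2.07 (SE 0.325, FDR 0.0001855). After the index-partner counts were taken out at 4.2%, the XX 24 h libraries kept 249 of 296 Tet3 counts, the XY 24 h DMSO libraries 65 of 108 and the XY 0 h libraries 35 of 56. The 24 h sex difference was then -2.1 (FDR 0.000702) and the XY rises 4.07 from 0 h and 3.27 from 24 h. At a ratio set per pair, XY 24 h DMSO kept 0 of 108 counts and XY 0 h 7 of 56, so the XY folds are then set by the counts left at or near 0 (-6.52 for the 24 h sex difference, 7.22 and 7.9 for the XY rises, 6.97 for the difference of contrasts). The XX change from 0 h to 72 h was then 3.5, and a sex difference at 0 h was called (-3.27, FDR 0.0262).

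Read against all genes tested, the counts of members called were as follows. XY against XX cells differed in 2 of 8 members at 0 h (3% of all genes called), 3 at 24 h (9.99%) and 4 at 72 h (41%). Within XY cells 1 member was called from 0 h to 24 h (2.94%), 4 from 24 h to 72 h (27.3%) and 6 from 0 h to 72 h (35.5%). Within XX cells these numbers were 2 (3.23%), 3 (22.2%) and 4 (37.2%). The sex contrast changed for 2 members between 0 h and 72 h (28.9%), 3 between 24 h and 72 h (26.1%) and 2 between 0 h and 24 h (0.452%). These shares over 8 genes were not tested against the background.

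**Figure D3:**
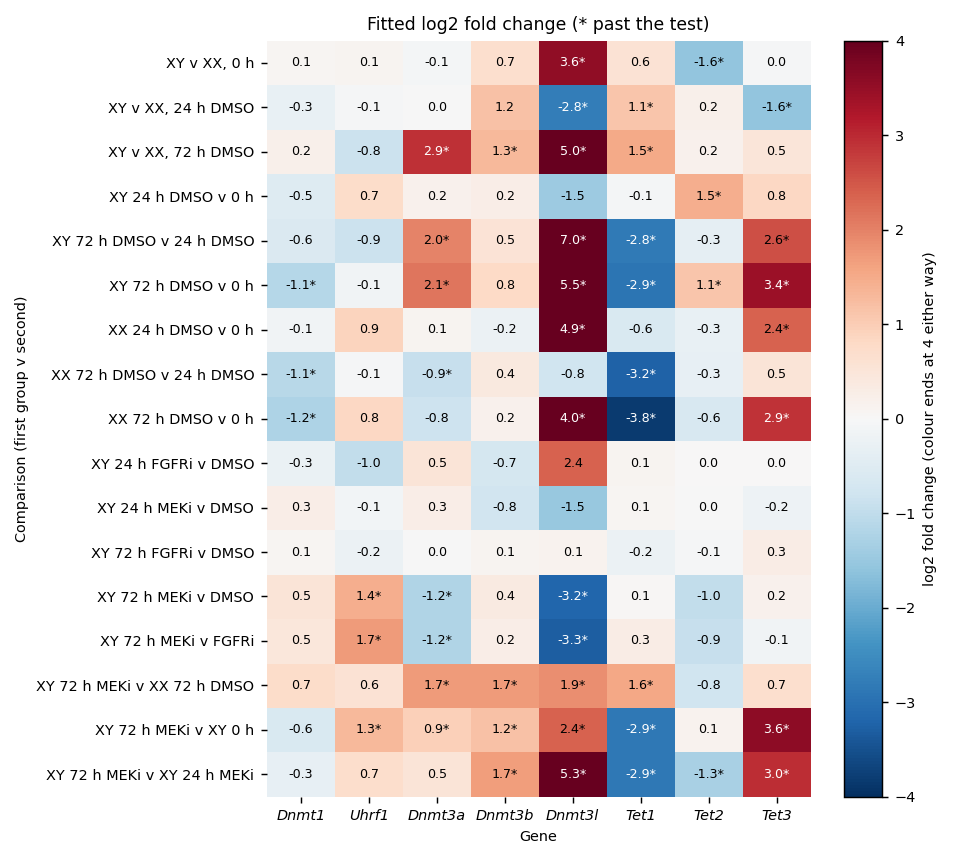
Fitted log2 fold changes of the 8 tested genes (columns) in each comparison (rows, first group over second), with an asterisk where limma's test against 1.5-fold was passed and colour ending at 4 in either direction. Tet1 is at -2.8 or below in each comparison of a 72 h with an earlier group, and the 72 h FGFRi row holds no called gene.

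The make-up of each family sets the members beside each other. Shares of summed counts are compared between groups only, since genes may be captured unequally. Dnmt1 made up 72.7% ± 1.94 of the Dnmt1, Dnmt3a and Dnmt3b counts in XX and 73.5% ± 3.43 in XY cells at 0 h. At 72 h with DMSO it was 65.3% ± 2.85 in XX and 24% ± 1.4 in XY cells, where Dnmt3a held 71.3% ± 2.15. Among the Tet genes, Tet1 held 88.2% ± 0.526 in XX and 96.5% ± 0.356 in XY cells at 0 h and 26.5% ± 4.61 and 45.8% ± 7.44 at 72 h. Tet3 went from 1.45% ± 0.366 and 1.01% ± 0.196 to 43.8% ± 3.78 and 35% ± 7.3. No test was run on these shares, which restate the counts above.

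**Figure D4:**
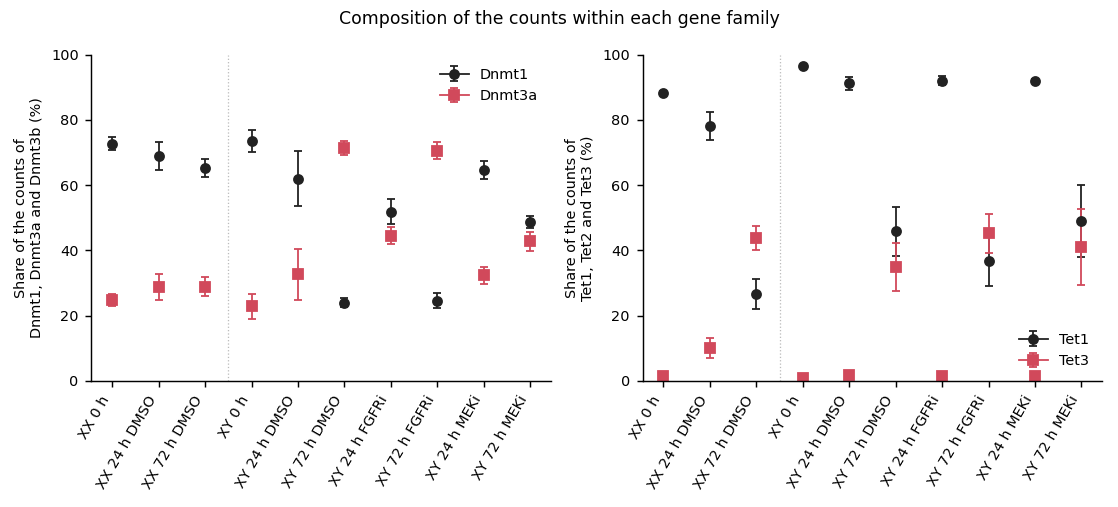
Mean share (%) with SD over 4 libraries of Dnmt1 (black circles) and Dnmt3a (red squares) in the Dnmt1, Dnmt3a and Dnmt3b counts, left, and of Tet1 (black circles) and Tet3 (red squares) in the Tet counts, right, in each group. Dnmt3a holds 71.3% in XY 72 h DMSO cells, 42.8% with MEKi and 28.9% in XX 72 h cells.

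The inhibitor comparisons ask whether blocking FGF receptors or MEK in XY gonads shifts these genes. At 24 h no member was called with either inhibitor against DMSO by limma, edgeR or DESeq2, while 0.164% of all genes were called with MEKi and 0.262% with FGFRi. None of the 8 with MEKi, and 2 with FGFRi, had an unadjusted p under 0.05 in limma's test against 1.5-fold. Uhrf1 read 48.6, 66.8, 59.7 and 80.2 CPM with FGFRi and 144, 120, 144 and 115 with DMSO, groups that did not overlap but lie in different pools (log2 fold change -1, FDR 0.6714). Limma's plain test called it (FDR 1.96e-05), and per-pair removal of index-partner counts, which touched the DMSO libraries alone, left it at -0.51 (FDR 1). Dnmt3l, the other, was at 6.95, 3.26, 7.46 and 4.22 with FGFRi against 0, 3.65, 1.03 and 1.35, groups that overlap (2.35, p 0.01217, FDR 1, limma). Limma's plain test called Dnmt3l too (FDR 0.0497), on 4 to 13 counts in each FGFRi library, as did the test after per-pair removal (4.44, FDR 0.00876). Dnmt3a was at 193 ± 16.3 with FGFRi and 163 ± 9.47 with MEKi against 139 ± 23.1 with DMSO, and neither difference was called (0.52 and 0.27, FDR 1 for each). After per-pair removal they were 1.22 and 0.97 (FDR 0.114 and 0.56). Tet1 was at 592 ± 66.9, 579 ± 39.6 and 540 ± 99.3 in the same order.

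After 72 h, MEKi and DMSO differed in 3 of the 8 members, while 9.12% of all genes were called. Dnmt3a read 228, 228, 244 and 212 CPM with MEKi against 496 to 554 with DMSO, and its log2 fold change was -1.21 (SE 0.0867, FDR 1.982e-07, limma). Dnmt3l read 8.93, 11.8, 22.4 and 10.6 against 107 to 177, with a change of -3.17 (SE 0.198, FDR 4.39e-15). Uhrf1 went the other way, at 221, 171, 182 and 211 against 52.6 to 82.9, with a change of 1.44 (SE 0.134, FDR 2.196e-06). The groups of these 3 genes did not overlap. Uhrf1 in MEKi-treated XY cells, 197 ± 23.6, was the highest mean of any group.

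The other members did not pass the test with MEKi at 72 h. Dnmt1 stood at 260 ± 17.4 CPM against 180 ± 11.5 with DMSO, a log2 difference of 0.52 (95% interval 0.32 to 0.71, FDR 1 against 1.5-fold) with no overlap of the libraries. Tet2 read 17.4, 18.4, 16.7 and 14.1 against 36.7, 28.8, 32.6 and 33.8, also without overlap, and its -0.98 was not called (FDR 0.1308), though edgeR called it (FDR 0.0472). Tet1 differed by 0.06 (-0.28 to 0.4), Tet3 by 0.17 (-0.12 to 0.45) and Dnmt3b by 0.37 (0.05 to 0.7). Dnmt3c, with 7 counts with MEKi and 18 with DMSO, was not called with no filter (FDR 0.401).

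FGFRi at 72 h left no member called, by limma, edgeR or DESeq2, in a comparison where 0.00656% of all genes, a single gene, was called. None of the 8 members had an unadjusted p under 0.05. Dnmt3a read 477, 514, 620 and 546 CPM and Dnmt3l 156, 127, 211 and 125, both within or around the DMSO range. The log2 differences were -0.02 for Dnmt3a (95% interval -0.19 to 0.15), 0.13 for Dnmt3l (-0.15 to 0.4), -0.25 for Uhrf1 (-0.55 to 0.05), -0.24 for Tet1 (-0.59 to 0.12) and 0.3 for Tet3 (0.01 to 0.59). For Dnmt1 it was 0.07 (-0.14 to 0.27), for Dnmt3b 0.12 (-0.21 to 0.46) and for Tet2 -0.06 (-0.39 to 0.26).

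The inhibitors were at the same dose and time, in one pool, and 3 members differed between them at 72 h (12.7% of all genes called). With MEKi over FGFRi the log2 fold change was 1.69 for Uhrf1 (SE 0.127, FDR 7.655e-10, limma), -1.19 for Dnmt3a (SE 0.0853, FDR 1.703e-07) and -3.3 for Dnmt3l (SE 0.194, FDR 1.881e-16). No member that passed the test in this comparison lay outside the 3 that differed between MEKi and DMSO. Those comparisons share the MEKi libraries.

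**Figure D5:**
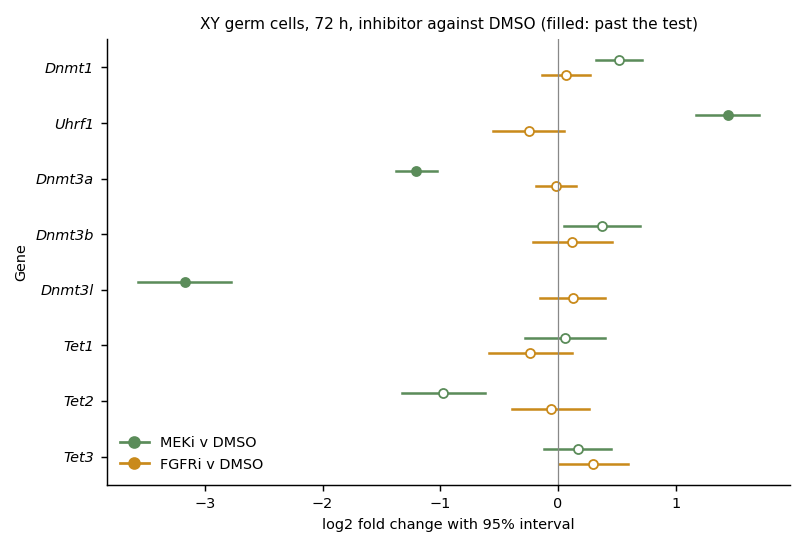
Log2 fold change with 95% interval for the 8 tested genes in XY cells at 72 h, MEKi over DMSO in green and FGFRi over DMSO in orange, filled where limma's test against 1.5-fold was passed. Only Uhrf1 (1.44), Dnmt3a (-1.21) and Dnmt3l (-3.17) are filled, all with MEKi.

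The effect of MEKi was larger at 72 h than at 24 h for Uhrf1 and Dnmt3a. The difference of the log2 effects was 1.55 for Uhrf1 (SE 0.19, FDR 0.0008345, limma) and -1.48 for Dnmt3a (SE 0.138, FDR 2.586e-05), 2 of 8 members where 1.88% of all genes were called. With index-partner counts taken out at a ratio set per pair, the Uhrf1 difference was 1.07 and no longer called (FDR 0.169). That removal left 745 of 1350 Uhrf1 counts in the XY 24 h DMSO libraries and took nothing from the 24 h MEKi libraries. Its ratios there, 15.2% to 25.7%, were above the lowest gene of each pair (4.17% to 8.64%). At the Y-linked ratio the Uhrf1 difference was 1.48 (FDR 0.00344). The Dnmt3a difference was -2.16 per pair, with 713 of 1442 DMSO counts left at 24 h, and -1.57 at the Y-linked ratio, both called. For Dnmt3l it could not be read, since the 24 h MEKi libraries held 2 counts in all.

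MEKi-treated XY cells at 72 h differed from XX cells and from XY cells before culture. Against XX 72 h DMSO cells, 4 members were higher (30% of all genes called). These were Dnmt3a by 1.7 in log2 (SE 0.118, FDR 1.282e-11), Dnmt3b by 1.69 (SE 0.239, FDR 0.0001051), Tet1 by 1.56 (SE 0.243, FDR 0.0005899) and Dnmt3l by 1.86 (SE 0.487, FDR 0.02172). The Dnmt3l call was lost without XY 72 h MEKi replicate 4 (1.38, FDR 0.159), without XX 72 h replicates 4 or 11 (0.0524 and 0.0572) and with no filter (0.143), where that of Tet1 was lost too (0.109). Against XY 0 h cells, 6 members were called (23.9%). Uhrf1 (1.3), Dnmt3a (0.95), Dnmt3b (1.16), Dnmt3l (2.35) and Tet3 (3.59) were higher and Tet1 (-2.86) was lower, with FDR values of 0.007552 or less. With no filter that of Dnmt3l was 0.0616. With index-partner counts taken out of the 0 h libraries at the Y-linked ratio and per pair, all 6 were called and the sizes were 5.7 and 6.07 for Dnmt3l, 4.23 and 7.4 for Tet3, and 1.17 and 1.92 for Dnmt3a. Against XY 24 h MEKi cells 5 were called (16.4%), Dnmt3b (1.68), Dnmt3l and Tet3 (2.95) higher and Tet1 (-2.85) and Tet2 (-1.31) lower. The Dnmt3l ratio there was 57.1 (exact 95% interval 15.6 to 475, for 224 against 2 counts). Both of the comparisons with earlier times cross the pools.

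Genes that work with the members were read from fixed lists, on the counts as deposited. Their values with index-partner counts taken out are not given here. The maintenance partners hold the remodeller Hells, its partners Cdca7 and Cdca7l, Uhrf2, Usp7, Lig1, Dmap1 and Dppa3, which keeps Uhrf1 off chromatin and is itself a germ cell marker. All 8 were tested. From 0 h to 72 h, 3 fell in XY cells (Hells -1.14, Usp7 -1.02, Uhrf2 -1.39) and none rose, where 15.2% of all genes were called lower. In XX cells 5 fell (18.4% of all genes), led by Dppa3 (-3.51, 96.2 against 1150 CPM), Cdca7l (-2.69) and Cdca7 (-1.87), and Dmap1 rose (1.06). At 72 h Dppa3 (3.12), Cdca7l (2.81) and Cdca7 (2.01) were higher in XY than in XX cells and Hells (-1.71) and Lig1 (-0.78) lower, against 22.8% and 18.1% of all genes. With MEKi at 72 h limma called 0 of the 8, where 9.12% of all genes were called, with 2 at an unadjusted p under 0.05.

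The de novo partners and guides include Piwil4, Spocd1, Tex15 and Morc1, which act with small RNAs to direct methylation to transposons, and the histone demethylase Kdm1b. Of 11 genes 10 were tested. In XY cells 5 were higher and 2 lower at 72 h than at 0 h (20.2% and 15.2% of all genes), with Spocd1 5.23 higher in log2, Piwil4 4.8, Tex15 3.68, Morc1 3 and Kdm1b 2.26, and a list median of 1.49 against 0.06 for all genes. Spocd1 (3.1%) and Piwil4 (4.24%) each had the lowest share of the index partner's counts in an XX 24 h library. The sizes of their rises are therefore uncertain, as for Dnmt3l. In XX cells 4 were higher (18.8% of all genes) and 2 lower (18.4%). Tex15 rose there by 3.68, to 1120 CPM against 873 in XY cells at 72 h, Nsd1 by 1.32 and Setdb1 by 1.3, and Spocd1 was called at 2.43 CPM against 0, while Morc1 (-1.71) and Trim28 (-1.27) fell. In the 72 h sex contrast 5 were higher in XY cells (22.8% of all genes), Piwil4 by 7.42 (261 against 1.68 CPM), Spocd1 by 6.3, Morc1 by 4.72, Kdm1b by 2.5 and Kdm1a by 1.14, and Setdb1 (-1.5) and Setd2 (-1.24) were lower (18.1% of all genes). With MEKi at 72 h 4 were lower (5.11% of all genes) and none higher. These were Spocd1 (-3.26, 19.6 against 197 CPM), Piwil4 (-2.03, 61.9 against 261), Morc1 (-1.63) and Kdm1b (-1.19), in the same direction as Dnmt3l and Dnmt3a, with a list median of -0.58 against 0.01 for all genes.

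Replication genes are set beside Dnmt1 and Uhrf1, whose transcripts are made in dividing cells. All 12 were tested. From 0 h to 72 h 10 fell in XY cells, among them Rrm2 (-4.37), Ccne1 (-4.23), Mki67 (-3.28) and Pcna (-2.37), and none rose, against 15.2% and 20.2% of all genes. In XX cells 8 fell (18.4% of all genes) and Ccne2 rose (2.96). At 72 h 7 were lower in XY than in XX cells (18.1% of all genes), among them Ccne2 (-3.78) and Mki67 (-2.92, 50.5 against 371 CPM), and Rrm1 was higher (1.28). With MEKi 5 of the 12 were higher than with DMSO (4.01% of all genes) and none lower, namely Ccne1 (2.83), Mki67 (2.27, 239 against 50.5 CPM), Rrm2 (2.21), Ccne2 (1.91) and Pcna (1.15). Uhrf1 was called upward in that comparison and Dnmt1 was not.

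Among TET partners and base excision repair genes, 12 of 13 were tested. In the 72 h sex contrast XY cells had 3 of them higher (22.8% of all genes) and 1 lower (18.1%). Neil2, a DNA glycosylase, was higher (4.37, 44.8 against 1.93 CPM), as were the endonuclease Apex1 (2.21) and Parp1 (1.13), while Gadd45b was lower (-2.09). With MEKi at 72 h 2 were higher (4.01% of all genes), Neil3 (1.93) and Gadd45b (1.76), and 1 was lower (5.11%), Neil2 (-1.49). Among the 7 methyl-CpG readers, 2 were higher in XY than in XX cells at 72 h (22.8% of all genes), Mbd2 (1.62) and Zbtb38 (1.19). Another 2 were lower (18.1%), among them Zbtb4 (-2.39). Limma called 0 of the list with MEKi (9.12% of all genes), with 1 at an unadjusted p under 0.05. In the methyl donor cycle 7 of 8 genes were tested. From 0 h to 72 h in XY cells 2 were lower (15.2% of all genes), Ahcy, which clears the by-product of methylation (-2.49), and Mat2a (-1.41), and 2 higher (20.2%), Ahcyl2 (1.66) and Mtr, methionine synthase (0.92). With MEKi 1 was higher and 1 lower (4.01% and 5.11% of all genes). Ahcy was higher (1.49, 47.6 against 17.2 CPM), and Mtr was lower (-1.67).

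The list of germline genes whose promoters are known to be held silent by methylation rose in both sexes. Of 12 genes, 11 rose in XY and 9 in XX cells from 0 h to 72 h and none fell, where 20.2% and 18.8% of all genes rose, with list medians of 2.4 and 2.36 in log2 against 0.06 and -0.01 for all genes. The changes were led by Taf7l (4.4), Tdrd1 (4.08) and Tex101 (4.06) in XY cells and by Taf7l (4.69), Tex101 (4.57) and Sycp3 (3.47) in XX cells. At 72 h 5 of the list were lower in XY than in XX cells (18.1% of all genes), the meiotic genes Sycp1 (-2.78), Sycp3 (-1.94) and Hormad1 (-1.72) with Taf7l (-2.54) and Tex101 (-2.2). Another 3 were higher (22.8%), Tdrd1 (3.13), Asz1 (1.33) and Brdt (1.3). With MEKi at 72 h Brdt (-1.47), Tdrd1 (-1.25) and Mael (-1.07) were lower than with DMSO (5.11% of all genes) and Taf7l (1.04) was higher (4.01%). Over all 7 lists, no gene was called with FGFRi at 72 h, and none had an unadjusted p under 0.05 in limma's test. None was called with either inhibitor at 24 h either, where 2 members and 1 list gene with FGFRi and 6 list genes with MEKi had such a p.

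Across the 40 libraries, the genes whose log2 CPM was most like that of each member were listed by Pearson r. The list is a description from counts as deposited, since the libraries share groups, pools, times and, in part, sample indices. For Dnmt3l the genes were Spocd1 (r = 0.973), Drc1 (0.964) and Tdrd9 (0.957), and for Dnmt3a Zbtb43 (0.961), Mapk3 (0.954) and Acot13 (0.944). Spocd1 (3.1%) and Drc1 (3.17%) each had the lowest share of the index partner's counts in an XX 24 h library. Dnmt1 was closest to the replication genes Mcm4 (0.942) and Pola2 (0.935) and to Jade1 (0.934), whereas for Uhrf1 the highest values were lower, at 0.792 for Acat2, 0.774 for Fadd and 0.765 for Haus4. Tet1 lay close to Epcam (0.968) and Trp53 (0.967), and Tet3 closest to Mov10l1 (0.948), Mael (0.943) and Tex15 (0.94). Dnmt3b was nearest to Map4 (0.863), Tapbp (0.86) and Rspo2 (0.842), and Tet2 to Id4 (0.781), Rnf213 (0.629) and Fbxo15 (0.626).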

How the data were processed

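Germ cells were sorted from mouse foetal gonads into 40 libraries, 4 in each of 10 groups, named by sex, time and treatment in the labels. The authors primed poly(A) RNA with a sample index and a molecular identifier, aligned reads to GRCm39 with Rsubread, counted exons by strand and collapsed identifiers with scPipe, and deposited raw counts per gene; the annotation release and tool versions are not given in the sources used here. Of the identifiers, 40391 of 42422 matched GENCODE M39.

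As in the study's methods, genes were filtered with filterByExpr (15252 kept, holding 99.22% of counts), scaled by TMM and fitted in R 4.3.3 with voom quality weights over all 10 groups (limma 3.58.1, edgeR 4.0.16), with treat against a 1.5-fold change at a Benjamini-Hochberg FDR under 0.05, for 21 contrasts. The fit was tested on simulated counts. Within groups, pairs of libraries differed beyond sampling noise (chi-square per degree of freedom 2.18 to 7.69 in 60 pairs) and none were identical. The labels do not say which gonad pools came from separate litters, so p-values measure the spread between these pools. Intervals on count ratios cover counting error only.

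The members and lists were chosen with earlier results of these data known. All 9 members are reported in each group. List genes are given by counts and, where called, named up to 5 per list by size, and the 3 genes with the highest Pearson r of log2 CPM (prior count 2) are named for each tested member. Rrm1, Kdm1a, Setd2, Trim28, Hormad1, Asz1 and, between the sexes, Brdt were named beyond this rule, after their values were seen, to complete counts of 5 or fewer. Some results that the rule would name are not reported here. Alternatives were edgeR and DESeq2 1.42.0 tests, DESeq2-type size factors, no filter, no quality weights, a plain test with an observed fold, fewer groups, a replicate block, each library left out, and index-partner counts taken out at a ratio set per pair (median 9.45%). Taking them out at the Y-linked ratio of 4.2% was chosen after seeing the data.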

Additional observations from a re-analysis of the deposited data

Results flagged for a closer look

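Of 85 sets of a member in one group with at least 2 libraries above 0, 7 had a library far from the other 3 by Dixon's test, where chance gives about 1 in 20. Dnmt1 was 404 CPM in XX 0 h replicate 5 against 354 to 362, and Dnmt3a was 168 in XX 24 h DMSO replicate 6 against 128 to 133. Dnmt3a was 496 in XY 72 h DMSO replicate 2 against 546 to 554, and Dnmt3b was 5.67 in XX 24 h DMSO replicate 5 against 12.4 to 13.2. Tet3 was 13.2 in XY 24 h FGFRi replicate 4 against 8.44 to 8.96 and 92.8 in XY 72 h FGFRi replicate 5 against 71.6 to 71.9. Dnmt3l was 19.3 in XX 24 h DMSO replicate 6 against 5.2 to 7.16, and the index partner of that library was the deepest of all, with 5199153 counts. In 4 further sets 1 library held 1 to 3 counts and the other 3 were at 0, which meets the criterion by construction: Dnmt3c at 1.03 in XY 24 h DMSO replicate 4 and 0.464 in XY 24 h MEKi replicate 1, and Dnmt3l at 0.386 in XX 0 h replicate 3 and 1.06 in XY 24 h MEKi replicate 4.

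Effects of one contrast differed between times, by limma's test of the difference, in 9 cases. With MEKi over DMSO, the log2 effect after 72 h exceeded the 24 h one by 1.55 for Uhrf1 and by -1.48 for Dnmt3a. Between the sexes, XY over XX was larger after 72 h than before culture by 2.97 for Dnmt3a and 1.74 for Tet2. From 24 h to 72 h it grew by 2.91 for Dnmt3a, 7.79 for Dnmt3l and 2.07 for Tet3, and from 0 h to 24 h by -6.32 for Dnmt3l and 1.76 for Tet2. Each sex contrast and each MEKi contrast lies within 1 pool. Where index-partner counts were taken out at the Y-linked ratio, the Dnmt3l values were 4.52 (FDR 0.0116) from 24 h to 72 h and 0.31 (FDR 1) from 0 h to 24 h, and the Tet3 value was 2.55.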

How the results depend on the processing

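Of 410 recomputed counts of members called, 383 stayed within 1.5 times the value reported, and of 1823 recomputed fold changes 1700 kept direction and call, 40 lost a call, 34 gained one and 49 changed sign. Where no construction is named, the cause of a change was not tested. With limma's plain test and an observed 1.5-fold change the members called were 4 for XY v XX at 0 h, 2 for XY 24 h v 0 h, 4 for XX 24 h v 0 h, 7 for XX 72 h v 0 h, 2 for 24 h FGFRi v DMSO, 8 for 72 h MEKi v XX 72 h, and 4 each for the MEKi difference between times and the sex difference at 72 h less 0 h. With only the groups compared, XY v XX at 0 h gave 1. With no filter, 72 h MEKi v XX gave 2 and the sex difference at 24 h less 0 h gave 1. With index counts taken out per pair, XX 24 h v 0 h gave 1, 24 h FGFRi v DMSO 2 (Dnmt3l and Tet3), 24 h MEKi v DMSO 1 (Tet3), and the sex difference 4 at 72 h less 0 h and 1 at 24 h less 0 h. That removal left XY 24 h DMSO at 0 of 108 Tet3 and 0 of 15 Dnmt3l counts and took nothing from the 24 h MEKi and FGFRi libraries, so both 24 h inhibitor contrasts were changed on the DMSO side alone. At the Y-linked ratio, XY v XX at 0 h, XX 24 h v 0 h and the sex difference at 24 h less 0 h gave 1 each. Leaving out 1 library gave 1 to 2 for XY v XX at 0 h and for the sex difference at 24 h less 0 h.

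Replicate numbers did not pair the samples: same-numbered libraries of different groups had a median correlation of -0.006 (4 of 106 pairs over 0.1), and 7 of 36 libraries correlated best with their own number. With the replicate block, 1 member was called for XY v XX at 24 h (Dnmt3l and Tet3 were lost, Tet3 at -1.54, FDR 0.0895). For XX 72 h v 24 h 1 was called, with Dnmt1 (FDR 0.0615) and Dnmt3a (0.115) lost. For 72 h MEKi v XX 72 h 2 were called, with Dnmt3l (0.341) and Tet1 (0.0505) lost. The sex difference at 24 h less 0 h gave 1, with Tet2 lost (0.107). The other 17 counts stayed within 1.5 times. Among them, XY v XX at 72 h lost Dnmt3b (FDR 0.111), and 72 h MEKi v XY 0 h lost Dnmt3b (0.0914) and Dnmt3l (0.0504).

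Signs changed as follows, in log2. Dnmt3l became -0.24 for XY v XX at 0 h with index counts taken out per pair. Per pair and at the Y-linked ratio it became 0.2 and 0.47 for XY v XX at 24 h, -0.27 and -0.26 for XX 24 h v 0 h, and 0.44 and 0.31 for the sex difference at 24 h less 0 h. For 72 h FGFRi v DMSO, Dnmt3a was 0.01 with edgeR, 0.01 with DESeq2 and 0.08 with no filter, and -0.07 to 0.05 with 1 library left out. Tet2 there was 0.02 with no filter and -0.19 to 0.08 with 1 library left out, and Dnmt3l 0 to 0.26. Tet1 for 72 h MEKi v DMSO was -0.02 with DESeq2, 0 with DESeq2-type factors and -0.07 to 0.22 with 1 library left out. None of these uncalled 72 h differences passed the test under any alternative. Dnmt3a for XY v XX at 24 h was 0.02 with no filter, 0.08 and 0.19 with index counts taken out per pair and at the Y-linked ratio, and -0.06 to 0.05 with 1 library left out, and at 0 h -0.12 to 0.04 with 1 left out. Tet3 for XY v XX at 0 h was 0 with the replicate block and -0.3 to 0.15 with 1 library left out. Tet3 for 24 h FGFRi v DMSO was 0.04 with DESeq2-type factors, 0 with no quality weights, 0.02 with only those groups, 5.31 per pair, 0.66 at the Y-linked ratio and -0.17 to 0.22 with 1 left out, and for 24 h MEKi v DMSO 5.12, 0.47 and -0.42 to 0.06. Depth limits Dnmt3c, and Dnmt3l at 0 h and 24 h.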
